A study of Canis lupus familiaris with 8 samples.

Results

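Tight junctions seal the gap between neighbouring cells. Claudins such as CLDN10 form the strands and set which ions can pass beside the cells, junctional adhesion molecules such as JAM3 hold the membranes together and take part in leukocyte passage across endothelium, and the scaffold TJP1 (ZO-1) ties these membrane proteins to actin. In heart muscle TJP1 also lies at the intercalated disc, where it binds the gap junction protein connexin 43, and a valve leaflet is covered by an endothelium that depends on such contacts.

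The genes TJP1, JAM3 and CLDN10 were followed in anterior mitral valve leaflets of 4 affected dogs, with degenerative mitral valve disease (DMVD, in which the leaflets thicken and lose their shape), and of 4 control dogs, with 1 Affymetrix array per dog. Among the affected dogs, affected 1 was of the breed Lhasa apso, affected 2 and 4 were each a Miniature poodle, and affected 3 was of the breed Dachshund. Each control was a beagle cross, so breed and disease cannot be told apart. Age and sex were not analysed here, and all leaflets were frozen before RNA extraction. Every probe set that the array annotation assigns to 1 of the 3 symbols was taken, which gave 3 of 6540 named genes and 9 of 23836 probe sets, 1 of TJP1, 4 of JAM3 and 4 of CLDN10. Signals of probe sets are linear values, and differences are log2 signal, affected minus control, with the standard error of limma, a linear model fitted to all probe sets together. A probe set was tested where at least 4 of 8 arrays lay above the 40th percentile of that array, which 5 of the 9 did. In a whole leaflet, fewer cells of a type and less RNA per cell cannot be told apart.

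Markers of the cells that make up a leaflet were present. DCN and COL1A1 of interstitial fibroblasts and PECAM1 and VWF of endothelium were above the floor of 34.2 on all 8 arrays, and CDH5 and LUM were not analysed here. Of 14705 tested probe sets, 0 passed an adjusted p of 0.05 in limma, while 1151 (7.83%) had an unadjusted p under that value. Heart muscle markers varied by dog more than by group, with a mean log2 signal over 18 genes from 10.03 in affected 3 to 13.52 in control 2. Differences of the 3 genes on their brightest probe sets, and of several other junction genes, are also given without these dogs.

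None of the 5 tested probe sets passed limma over all 14705 (0 of 5, against 0% of all probe sets). The probe set of TJP1 and the brightest ones of JAM3 and CLDN10 each had a lower mean log2 signal in affected leaflets. Their log2 differences correspond to 67.4%, 60.9% and 48.5% of the control level. Among them TJP1 alone had groups that did not overlap, in the lower direction, as did 2.31% of all tested probe sets. With all dogs TJP1 was also the 1 member probe set of the 5 with an unadjusted p under 0.05, where 3.81% of all tested probe sets were lower at that level. That order depended on the fit. TJP1 missed the unadjusted level in 4 of 8 fits that left out 1 dog (affected 1, affected 4, control 3 or control 4, with unadjusted p in limma from 0.0502 to 0.0766). CLDN10 reached it with median centring, array weights, the replicate block and the muscle covariate, and JAM3 1588911_at with array weights and the covariate (unadjusted p in limma of 0.0290, 0.0487, 0.00491 and 0.0214 for CLDN10, and of 0.0252 and 0.0298 for JAM3). Leaving out affected 2 or control 3 brought CLDN10 to 0.0220 or 0.0282, and leaving out affected 3 brought JAM3 1588911_at to 0.0142 (unadjusted p in limma).

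TJP1, the scaffold, was measured by a single probe set, 1582401_at. Its signal was 2073, 2811, 3395 and 2717 in affected 1 to 4, against 3465, 4210.4, 4126 and 4337 in control 1 to 4. All 4 affected dogs lay below all 4 controls, although affected 3 and control 1, the nearest pair, were close to each other. The means were 2749 ± 541 in affected dogs and 4035 ± 390 in controls (SD, n = 4 each). The log2 difference was -0.57 ± 0.22 (SE), which puts affected leaflets at 67.4% of the control level with a 95% interval from 47.7% to 95.2%. In limma the unadjusted p was 0.0288 and the adjusted p was 0.604. A two-sided exact permutation test over the 70 splits of the dogs gave p = 0.0286 for this probe set alone, the smallest that 4 against 4 dogs allow. Leaving out each dog in turn kept the difference between -0.68 and -0.44.

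JAM3, the adhesion molecule, had 4 probe sets, with log2 differences from -0.71 to 0.54. The brightest, 1588911_at, had signals of 139, 232, 407 and 311 in affected 1 to 4, against 471, 399.8, 378 and 415 in controls 1 to 4. Affected dogs 1, 2 and 4 lay below every control, and affected 3 lay within the control range. The spread was wider among affected dogs, whose mean was 272 ± 114, than among controls, with 416 ± 39.5 (SD, n = 4 each). The log2 difference of -0.71 ± 0.33 corresponds to 60.9% of the control level, with a 95% interval from 36.6% to 101%, and did not pass in limma (adjusted p = 0.645, exact permutation p = 0.0857). It rested most on affected 1, the lowest dog, without which it was -0.43.

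The second JAM3 probe set, 1589038_at, had 155, 223, 303 and 229.8 in affected 1 to 4, against 281, 248, 229 and 313 in controls 1 to 4. Its groups overlapped, and the log2 difference was -0.26 ± 0.27 (adjusted p = 0.809 in limma), with -0.09 without affected 1. It ordered the dogs much like the first probe set, with affected 1 lowest on each. Over the 8 dogs Pearson's r between these 2 probe sets was 0.903 (exact permutation p = 0.00171) and Spearman's rho was 0.905 (exact permutation p = 0.00456), with adjusted p of 0.00513 and 0.0137 over 3 pairs of JAM3 probe sets. With group means removed r was 0.907 (exact permutation p = 0.0122, adjusted p = 0.0365). Without affected 1 and affected 2, the dogs farthest from the median, r was 0.659 (exact permutation p = 0.140, n = 6). Leaving out the farthest dogs narrows the range, so this value cannot show whether the relation rests on them.

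The other JAM3 probe sets did not share that order. The probe set 1592286_s_at, whose suffix marks probes that can match more than 1 transcript, had 120, 72.2, 87.4 and 86.6 in affected dogs and 81.5, 102, 62.3 and 107 in controls, and affected 1 was here the highest of the 8. Its log2 difference was 0.06 ± 0.34 (adjusted p = 0.971 in limma), and its sign turned with the normalization, at -0.050 after quantile normalization and -0.012 after median centring. Its r with the brightest JAM3 probe set was -0.334 over the 8 dogs, with a rho of -0.0238 (exact permutation p = 0.418 and 0.977).

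The last JAM3 probe set, 1599227_at, was bright enough on 3 of 8 arrays and was not tested. It had 218, 225, 103 and 16.7 in affected 1 to 4, against 71.4, 69.6, 80.1 and 96.7 in controls. Affected 1, 2 and 3 lay above every control and affected 4 below every control, under the floor. With no filter on dim probe sets the log2 difference was 0.54 ± 0.61, with affected 4 set to the floor (adjusted p = 0.839 in limma). Whether the tested JAM3 probe sets differ in their response was examined by the log2 ratio between 2 of them within each dog. The affected minus control difference in the ratio of 1588911_at to 1589038_at was -0.45 (exact permutation p = 0.0857, adjusted p = 0.114 over 2 pairs). In the ratio of 1588911_at to 1592286_s_at it was -0.78 (exact permutation p = 0.114, adjusted p = 0.114). The groups overlapped in both, so an unequal response of the probe sets was not detectable with 4 dogs per group.

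CLDN10, the claudin, was measured above the floor by 1 of its 4 probe sets, 1583659_s_at, whose suffix again marks probes that can match more than 1 transcript, so every CLDN10 value below rests on that probe set. Its signal was 222, 438, 113 and 249 in affected 1 to 4, against 352, 1058, 269 and 495 in control 1 to 4. Affected 1, 3 and 4 lay below every control, and affected 2 lay within the control range. Control 2 had by far the highest value of the 8, and affected 3 the lowest. The means were 256 ± 135 in affected dogs and 543 ± 356 in controls (SD, n = 4 each), and the log2 difference was -1.04 ± 0.49. Affected leaflets were thus at 48.5% of the control level, with a 95% interval from 22.7% to 104% (adjusted p = 0.654 in limma, exact permutation p = 0.143). The probe sets 1592862_at, 1593098_at and 1593099_at lay under the floor on all 8 arrays, with signals of at most 22.1, 7.61 and 10.1 in affected dogs and 27.2, 9.84 and 16.9 in controls, and give no comparison.

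**Figure D1:**
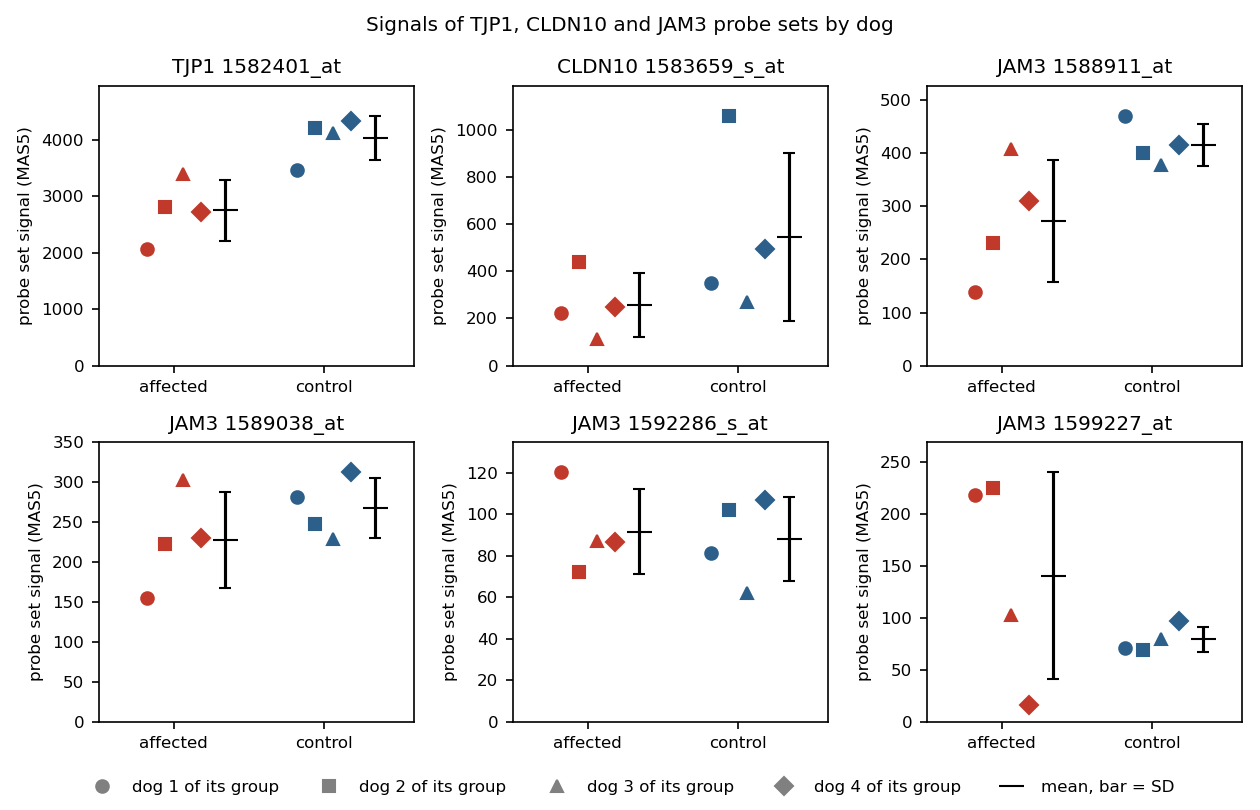
Probe set signal (linear scale, from 0) of TJP1, CLDN10 and the 4 JAM3 probe sets, 1 point per dog with the marker shape giving the dog's number within its group, and the mean with SD beside each group (n = 4). Every affected dog lies below every control for TJP1, affected 3 reaches the control range for JAM3 1588911_at, and control 2 stands highest for CLDN10 at 1058.

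Of 4 marker lists set against CLDN10 over the dogs, cardiac muscle and macrophage had the largest correlations, one positive and one negative. The 18 tested markers of cardiac muscle, among 27 listed, were lower in affected dogs for 17 and higher for 1, with 0 past an adjusted p of 0.05 in limma and 0 at an unadjusted p under 0.05. The summed signal of the 19 on the array, tested or not, ran from 33371 to 258871 in affected dogs and from 65849 to 331176 in controls. The defining markers MYH7, TNNT2, TNNI3 and ACTC1 were above the floor on all 8 arrays. Within the controls the order of CLDN10 was that of the marker mean, with control 2 first, then 4, 1 and 3. Within the affected dogs affected 2 was first and affected 3 last in each measure, with affected 4 above affected 1 for CLDN10 and below it for the markers.

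Over the 8 dogs Pearson's r of CLDN10 with the cardiac muscle mean (log2 signal) was 0.923 (exact permutation p = 0.00283, adjusted p = 0.0424 over 15 relations) and Spearman's rho was 0.810 (exact permutation p = 0.0218, adjusted p = 0.163). With group means removed and dogs permuted within their group, r was 0.982 (exact permutation p = 0.00347, adjusted p = 0.0521). Without affected 3 and control 2, the dogs farthest from the median of the marker mean, r was 0.682 (exact permutation p = 0.140, n = 6). The relation was thus not detectable in those 6 dogs. Their range is narrower by selection, so this cannot show whether the relation rests on the dogs left out. TJP1 and JAM3 did not follow these markers closely, with r of 0.0771 and -0.165 and rho of 0.238 and -0.143 (exact permutation p of 0.859 and 0.684 for r, 0.582 and 0.752 for rho). With the macrophage mean CLDN10 had r of -0.802 (exact permutation p = 0.0208, adjusted p = 0.0779) and rho of -0.810 (exact permutation p = 0.0218, adjusted p = 0.163), as large a rho as with muscle. With group means removed that r was -0.676 (exact permutation p = 0.108), and without control 2 and affected 1 it was -0.544 (exact permutation p = 0.261, n = 6). With the endothelial and adipocyte means r of CLDN10 was -0.570 and 0.161 (exact permutation p = 0.138 and 0.688, rho -0.643 and 0.643).

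Control 2 and affected 3 are at the ends of the muscle range and also hold the highest and the lowest CLDN10 signal. Leaving them out therefore has to bring the CLDN10 difference nearer to 0, whatever their muscle content. It was -0.65 without control 2, -0.70 without affected 3 and -0.32 ± 0.36 without both (adjusted p = 0.684 in limma). Affected 3 is the highest affected dog for TJP1 and JAM3, so their differences had to grow without it, and without both dogs they were -0.66 ± 0.23 and -0.96 ± 0.34. With all dogs and the muscle marker mean as a covariate, CLDN10 differed by -0.65 ± 0.24 (unadjusted p = 0.0214, adjusted p = 0.367 in limma), TJP1 by -0.60 ± 0.23 and JAM3 by -0.82 ± 0.33. The part of muscle in the CLDN10 difference was not tested by these values.

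**Figure D2:**
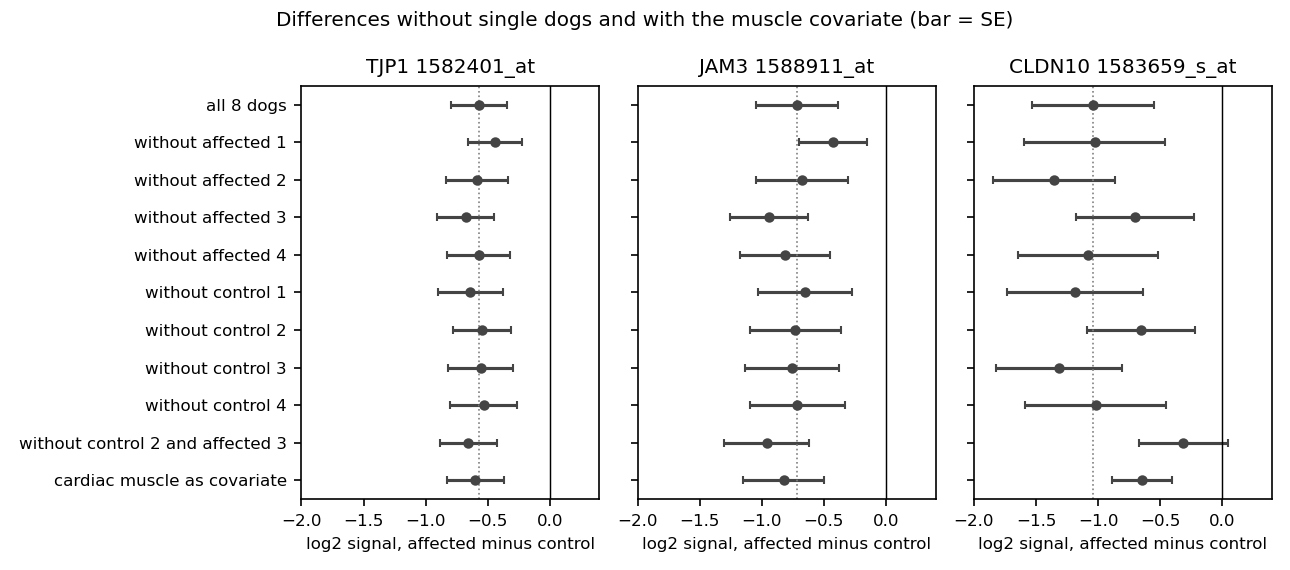
Log2 signal, affected minus control, with SE, of the brightest probe set of TJP1, JAM3 and CLDN10 with all 8 dogs, without each dog, without control 2 and affected 3 together, and with the mean of the cardiac muscle markers as a covariate. The dotted line is the value with all dogs. CLDN10 is nearest to 0, at -0.32, without those 2 dogs, which hold its own highest control and lowest affected signal.

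Markers of 3 other cell types moved with the groups beside TJP1. Of 9 tested endothelial markers 8 were higher in affected dogs, with a summed signal from 22016 to 34975 in affected dogs and from 11134 to 18709 in controls. The defining markers PECAM1 and VWF overlapped between the groups on their brightest probe sets, with log2 differences of 1.01 ± 0.34 and 0.57 ± 0.52. The other tested probe sets of PECAM1 differed by 0.16 to 0.73. Of 14 macrophage markers 14 were higher, with sums from 22142 to 49778 in affected dogs and from 1544 to 20768 in controls. Of 8 tested adipocyte markers 7 were lower. Sums over the 9 on the array, tested or not, ran from 2784 to 3423 in affected dogs and from 6895 to 23206 in controls. ADIPOQ, the only defining adipocyte marker on the array, overlapped between the groups on its brightest probe set. It had 75.2 to 208 in affected dogs, and 33.9 in control 2, under the floor, against 1586, 9835 and 1884 in controls 1, 3 and 4. The sums of these 3 lists did not overlap between the groups, and the part of these cells in the TJP1 difference was not tested. Of all 5438 tested genes, 50.5% were lower in affected dogs. Smooth muscle markers were higher for 5 of 5 tested, and fibroblast markers were higher for 5 and lower for 1. The summed signals of those lists overlapped between the groups.

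Since neither TJP1 nor the endothelial mean overlapped between the groups, their relation was computed with group means removed. There r was -0.815 (exact permutation p = 0.0104) and rho was -0.800 (exact permutation p = 0.0625). The adjusted permutation p of r was 0.0521 over 15 relations, others of which were pooled over dogs. It was 0.0781 with group means removed in all 15. Affected 1 had the highest endothelial mean and the lowest TJP1, and among controls control 1 had the highest endothelial mean and the lowest TJP1. Without control 2 and control 4, r was -0.839 (exact permutation p = 0.0833, n = 6). The same measure for TJP1 was -0.450 with macrophage markers and -0.0466 with adipocyte markers (exact permutation p = 0.165 and 0.840, rho -0.400 and -0.100). JAM3 had r of -0.709 with the endothelial mean over the 8 dogs (exact permutation p = 0.0306, adjusted p = 0.0918) and rho of -0.690 (exact permutation p = 0.0694). With group means removed that r was -0.370 (exact permutation p = 0.300), and without control 2 and control 4 it was -0.700 (exact permutation p = 0.106, n = 6). With the macrophage and adipocyte means r of JAM3 was -0.534 and 0.430 (exact permutation p = 0.182 and 0.287, rho -0.429 and 0.405).

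TJP1 and the brightest JAM3 probe set were low in the same dog, affected 1, and among affected dogs both were highest in affected 3. Over the 8 dogs r was 0.864 (exact permutation p = 0.00667, adjusted p = 0.05004 over 15 relations, just above the threshold) and rho was 0.714 (exact permutation p = 0.0576). With group means removed r was 0.758 (exact permutation p = 0.153), and without affected 1 and control 4 it was 0.663 (exact permutation p = 0.150, n = 6). The relation was thus not detectable in either. Affected 1 and control 4 were left out as farthest from the TJP1 median, which narrows the range, so whether the relation rests on them stays undecided. CLDN10 had r of 0.433 with TJP1 and 0.184 with JAM3 (exact permutation p = 0.285 and 0.622, rho 0.690 and 0.286).

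**Figure D3:**
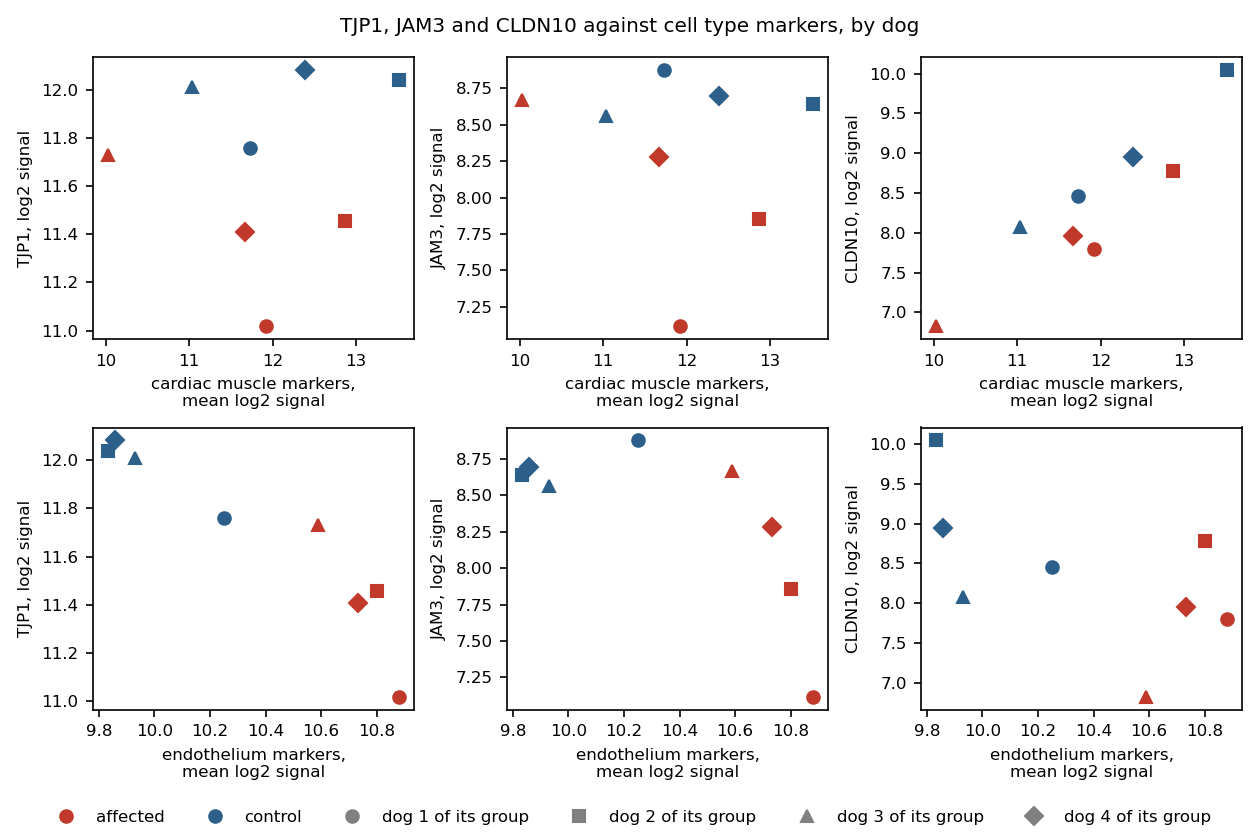
Log2 signal of the brightest probe set of TJP1, JAM3 and CLDN10 in each dog (vertical axes) against mean log2 signals of marker genes, of cardiac muscle in the upper row and of endothelium in the lower row. CLDN10 climbs with the muscle markers up to control 2 at 13.52, and the highest endothelial mean and lowest TJP1 signal belong to affected 1.

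The remaining tight junction genes lay on either side of 0. Of 62 listed genes 21 were named on the array and 15 were tested, of which 9 were lower and 6 higher in affected dogs, with 0 past an adjusted p of 0.05 in limma and 1, TJP1, at an unadjusted p under 0.05 (lower, against 3.92% of all 5438 tested genes at their brightest probe set). The median log2 difference was -0.06, against -0.0056 over all genes, of which 50.5% were lower. Single dogs moved that median between -0.26 (without affected 2) and 0.02 (without affected 4), and the number of lower genes between 6 (without affected 3) and 11 (without affected 2). With all dogs but without TJP1, JAM3 and CLDN10, 6 of the other 12 were lower and 6 higher, with a median of -0.00058. The members were chosen with results of these dogs known, so their place at the low end of the list is no finding.

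Among the membrane proteins, the claudin CLDN3 differed by -0.06 ± 0.38, and CXADR, an adhesion protein of the intercalated disc and receptor of coxsackie and adenoviruses, by -0.24 ± 0.92. The 3 tested probe sets of CXADR ranged from -0.51 to -0.24, and on its brightest control 2 reached 4846 and affected 3 was lowest at 188, as for CLDN10. Its sign turned without either dog, to 0.48 without control 2 and 0.51 without affected 3. Among the scaffolds, AMOTL1, a member of the angiomotin family, differed by 0.53 ± 0.43, a value that rests on control 2, at 11.8 and under the floor, and was 0.14 without that dog. Another scaffold, MPDZ, which carries many PDZ domains, differed by -0.38 ± 0.39, and by -0.0023 without affected 1, with its other probe sets at -0.76 and 0.36. The polarity proteins PARD3, which also binds JAM3, PARD6A and the kinase PRKCZ differed by 0.04 ± 0.26, 0.02 ± 0.26 and -0.17 ± 0.42. The other tested probe sets of PARD3 differed by 0.50 ± 0.28 and 0.32 ± 0.24, with overlap (adjusted p = 0.683 and 0.734 in limma). The regulators ARHGEF2 and YBX3, a nucleic acid binding partner of TJP1, differed by 0.25 ± 0.31 and 0.18 ± 0.36. Without control 2 ARHGEF2 differed by -0.02 and YBX3 by 0.56. Occludin (OCLN), CLDN2, CLDN18 and the scaffold TJP3 were on the array but too dim to be tested, and TJP3 lay under the floor in all 8 dogs.

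Of the known partners of JAM3 on other cells, the leukocyte integrin of ITGAM and ITGB2 had higher signals in affected dogs. ITGB2 had 768, 575, 670.4 and 919 in affected 1 to 4, against 409, 151, 209.7 and 307 in controls, a log2 difference of 1.52 ± 0.33 (adjusted p = 0.328 in limma). ITGAM had 333, 289, 313 and 635 in affected 1 to 4, against 184, 87.5, 156 and 168 in controls, a log2 difference of 1.38 ± 0.35 (adjusted p = 0.367 in limma). Neither passed, and in neither did the groups overlap, as in 2.35% of all tested probe sets in that direction. ITGAM is also a macrophage marker, so these partners lie with the macrophage values above. JAM2 was not analysed here.

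In the other junctions, 4 of 4 tested desmosome genes, 5 of 7 adherens junction genes and 2 of 2 gap junction genes were lower in affected dogs, with medians of -0.89, -0.25 and -0.16 and 0 past an adjusted p of 0.05 in limma or at an unadjusted p under 0.05 on the brightest probe set. The desmosome genes PERP, DSP, a plaque protein, and DSC2, a cadherin, differed by -0.84 ± 0.38, -0.94 ± 0.68 and -1.03 ± 0.76. Without control 2 these differences were -0.44, -0.40 and -0.36. DSP was 10297 in control 2 and 741 in affected 3, the highest and lowest of the 8, as for CLDN10. Without control 2 and affected 3 the desmosome median was -0.11, the adherens junction median 0.03 and the gap junction median 0.42. For DSP and DSC2 control 2 was the highest control and affected 3 the lowest affected dog, so their differences had to move up. This pair of dogs was chosen after seeing the data, and the part of muscle in these medians was not tested. The catenin CTNNA2 differed by -1.38 ± 0.94 and the actin linker VCL by -0.46 ± 0.31. The CTNNA2 difference was -0.61 without control 2 and -0.93 without affected 3. The connexins GJA1 (connexin 43, a binding partner of TJP1) and GJA5 differed by -0.28 ± 0.36 and -0.03 ± 0.72. The GJA1 difference was -0.02 without affected 1 and -0.60 without affected 4. GJA5 turned to 0.73 without control 2 and to 0.39 without affected 3. For CTNNA2 and GJA5, as for DSP, control 2 was the highest control and affected 3 the lowest affected dog.

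JUP, plakoglobin, a linker in adherens junctions and desmosomes, was the junction gene outside the tight junction list with non-overlapping groups on its brightest probe set, as were 2.37% of all genes in that direction. That probe set had 1388, 1495, 1219 and 731 in affected 1 to 4, against 1529.7, 2076, 1695 and 1605 in controls, a log2 difference of -0.56 ± 0.27 (adjusted p = 0.659 in limma). Affected 2 and control 1 were close to each other. Its other tested probe sets, looked up after the values were seen, differed by -0.83 ± 0.24, also with no overlap, and -1.29 ± 0.45, with overlap (adjusted p = 0.458 and 0.549 in limma).

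**Figure D4:**
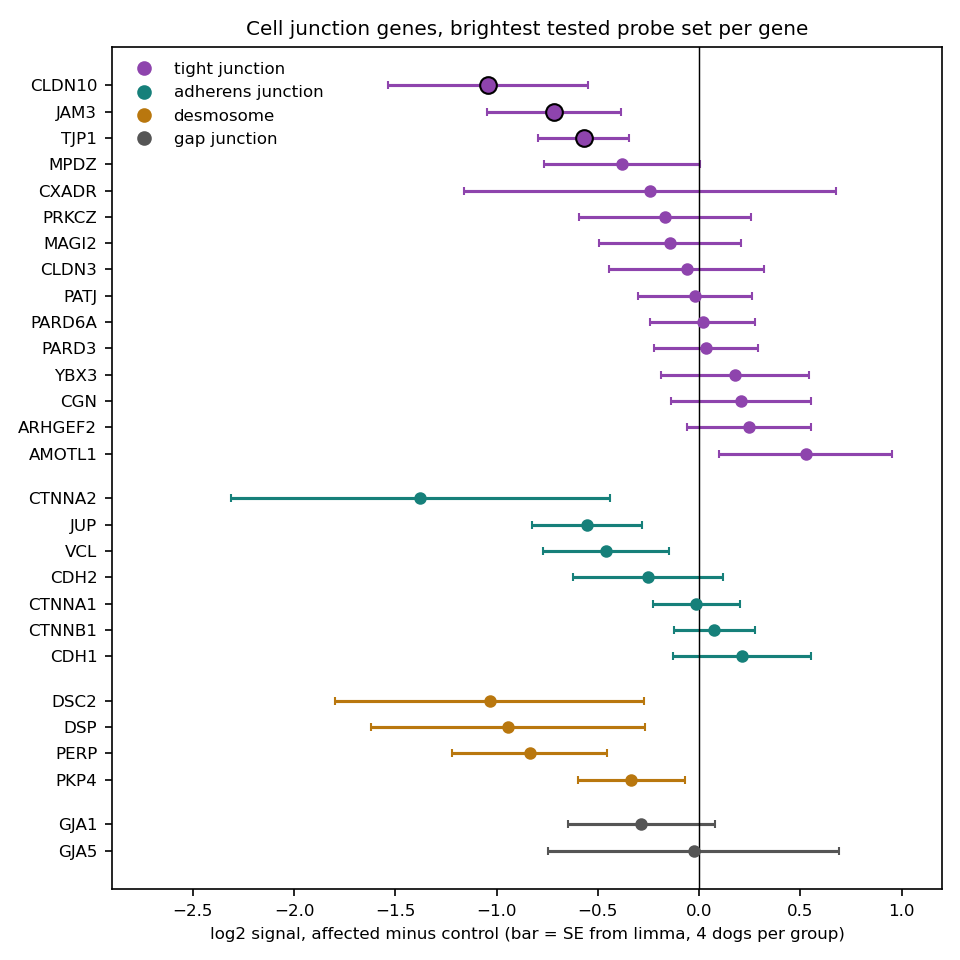
Log2 signal, affected minus control, with SE, of the brightest tested probe set of each listed gene of tight junctions, adherens junctions, desmosomes and gap junctions. TJP1, JAM3 and CLDN10 have larger markers with a black edge. The other 12 tight junction genes lie on either side of 0, and the bars of DSC2, DSP, CTNNA2 and CXADR are wide.

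The genes with the most similar profiles were sought among 7855 tested probe sets with 1 symbol, by the root mean square difference of log2 signal over the 8 dogs after each mean was removed. For TJP1, whose own spread was 0.349 in that measure, the nearest were NELFCD, a subunit of a transcription pausing complex, at 0.107, ZCRB1 at 0.124, EXOSC1, an exosome subunit, at 0.127, GOLPH3L at 0.128 and LOC490647 at 0.139. For JAM3, with a spread of 0.548, they were SPART at 0.0864, the transcription factor BHLHE41 at 0.112, LOC484082 at 0.124, DPY30, a subunit of histone methyltransferase complexes, at 0.126 and PPP1R2, an inhibitor of protein phosphatase 1, at 0.144. For CLDN10, with a spread of 0.887, they were the aminotransferase GOT1 at 0.200, DDIT4L at 0.218, RABGAP1L at 0.234, the mitochondrial ADP/ATP carrier SLC25A4 at 0.254 and HJV at 0.257. No junction gene of the lists was among these 15. The profiles share arrays and groups, so the values are a description.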

How the data were processed

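RNA of 8 leaflets, 1 array each, was measured. The deposited values are probe set intensities on a linear scale which, as the submitters' processing notes record, the authors made with MAS5. Its version, detection calls and a genome build are not stated in what was used here, and no coordinates or sequences are printed. Every array had a trimmed mean of 500.1 (2% off each end), so arrays had been scaled before deposit, and a tissue that differs in abundant transcripts moves all other values. Names came from the platform annotation, for rows with 1 symbol (10549 of 23913). Of these, 10046 gene identifiers were found in a RefSeq table (dog assembly UU_Cfam_GSD_1.0), which changed 0 of the symbols.

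Signals were brought to a common trimmed mean, values under the 20th percentile of all signals (34.2, or 5.10 on the log2 scale) were set to it, and log2 was taken. The 14705 probe sets above the 40th percentile of the array on at least 4 of 8 arrays, control probe sets left out, were tested with limma 3.58.1 in R 4.3.3 (lmFit, eBayes with trend, two-sided, Benjamini-Hochberg over all). Single probe sets and correlations also had two-sided exact permutation tests over dogs (scipy 1.17.1 for ranks). For TJP1 against endothelial, macrophage and adipocyte markers the pooled correlation that was planned was replaced by the one with group means removed, since the groups are separate. The fit was tested on simulated data. The number of arrays limits the precision.

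Genes were described by their brightest tested probe set. Named were all probe sets of the 3 genes, the 3 list genes with the smallest p per tight junction role and per other junction list, the JAM3 partners, defining markers and the 5 nearest profiles per gene. The members and lists were chosen with earlier results of these data known. Alternatives were other normalizations, filters, floors and variance models, a replicate block, the cardiac muscle covariate and leaving out each dog. Leaving out control 2 and affected 3 together, and comparing JAM3 probe sets, were chosen after seeing the data.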

Additional observations from a re-analysis of the deposited data

How the results depend on the processing

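None of the 5 tested probe sets of TJP1, JAM3 and CLDN10 passed the adjusted threshold under any alternative run (smallest adjusted p 0.215, for TJP1 without control 2 and affected 3), and all but JAM3 1592286_s_at kept their sign. That probe set turned to -0.050 with quantile normalization and -0.012 with median centring. Leaving out single dogs gave ranges of -0.68 to -0.44 for TJP1, -0.94 to -0.43, -0.41 to -0.09 and -0.094 to 0.17 for JAM3 1588911_at, 1589038_at and 1592286_s_at, and -1.36 to -0.65 for CLDN10. The number of all probe sets past the threshold, 0 with all dogs, was 4 with the replicate block, 1 without control 1 and 128 without control 2 and affected 3, none of them a probe set of these genes. At an unadjusted p under 0.05, 591 were higher and 560 lower, with 896 and 1071 under array weights and 1153 and 1287 without control 2 and affected 3, and 867 lower with the cardiac muscle covariate. Single dogs moved these counts between 380 (without affected 1) and 1006 (without affected 3) higher and between 314 (without affected 1) and 834 (without affected 3) lower, with 328 lower without control 4. For the tight junction list the range over single dogs was -0.26 to 0.02 for the median and 6 to 11 for the lower genes. Leaving out control 2 took the lower genes of the adherens junction list to 3, as did leaving out affected 3 as well (range over single dogs 3 to 5). Of 2 gap junction genes 1 was lower with quantile normalization, array weights, the covariate, and without control 2, affected 3 or both (range 1 to 2). With group means removed r turned to -0.102 for TJP1 and CLDN10, -0.325 for JAM3 and CLDN10, -0.259 for TJP1 and cardiac muscle (-0.204 without the 2 farthest dogs), -0.129 for JAM3 and adipocyte markers and -0.536 for CLDN10 and adipocyte markers. The call of CLDN10 with cardiac muscle was lost with group means removed (r = 0.982, adjusted p = 0.0521) and without the 2 farthest dogs (r = 0.682, adjusted p = 0.563). The cause of these changes was not tested. The replicate numbers were not taken to pair the dogs, since the correlation of deviations between same-numbered dogs was -0.116, 0.409, 0.0220 and -0.0132 for numbers 1 to 4, and a block cannot move a mean difference between 4 and 4 dogs. It changed the errors, for CLDN10 to an SE of 0.281, against 0.493 without the block, with an unadjusted p of 0.00491 and an adjusted p of 0.234 in limma, and it lost or gained no call of the 3 genes. Signal over background limits CLDN10, with 3 of 4 probe sets under the floor.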
